A study of Mus musculus with 12 samples.

Results

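Tissue-restricted self antigens are proteins that belong to 1 or a few peripheral organs, such as insulin, milk casein, albumin or myelin protein, and are also made at low level inside the thymus. 34 known genes of this kind were chosen by name from the pancreas, liver, gut, mammary and salivary glands, thyroid, nervous system, eye and testis, and the brightest probe set that carried a single gene symbol was taken for each. 33 of the 34 genes had such a probe set, 1 each, among 19938 genes and 35556 probe sets on the array. The gene for which none was matched, Ins1, was not analysed here. The salivary protein gene Spt1 was matched through its current symbol, Mucl2.

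RNA came from thymi of day 7 pups of the FCG mouse, from the epithelium and stroma left after repeated removal of thymocytes. It was hybridized to 12 Affymetrix mouse Gene 1.0 ST arrays. In FCG mice, which were on a C57BL/6J background, the testis-determining gene Sry is missing from the Y chromosome and is carried as a transgene on an autosome, so that gonads and sex chromosomes are inherited separately. The groups were XX females (XXF, 3 arrays), XY females without the Sry transgene (XYF, 3 arrays), XX males with the transgene (XXM, 4 arrays) and XY males with the transgene (XYM, 2 arrays). The labels name no drug or hormone given to these pups, every XY pup of either sex carried the Y chromosome that lacks Sry, and males differed from females by the transgene as well as by their gonads. The series was made to ask about effects of gonadal hormones and sex chromosomes on the thymus around birth.

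In the thymic medulla, epithelial cells express a great many genes of other organs, each antigen in a small minority of the cells, and show them to developing T cells. T cells that bind these antigens strongly are deleted or become regulatory T cells, and failure of this process leads to autoimmune disease of many organs. Aire, a nuclear protein of mature medullary epithelium, is needed for many such antigens, Ins2 and Spt1 among them. Fezf2, a zinc finger transcription factor of the same epithelium, is needed for others. Because a mixed tissue rather than single cells was measured, fewer antigen-producing cells and less RNA in each of them cannot be told apart.

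The genotype labels were borne out on every array. The probe set for Sry read 2524 to 2836 in the 6 males and 416 to 565 in the 6 females. Xist, which is made from the inactive X chromosome, read 8505 to 9884 on XX arrays and 40.0 to 79.9 on XY arrays, and the Y-linked gene Eif2s3y read 12061 to 13268 on XY arrays and 37.6 to 55.7 on XX arrays. Median signals of the arrays lay between 327.5 and 345.5, and pairs of arrays correlated at 0.961 to 0.980 across the log2 signals of all probe sets. Markers of cortical epithelium were above the reference level for silent genes (defined in the next paragraph) for 12 of 12 genes, and those of medullary epithelium for 16 of 18 genes. All 17 measured thymocyte genes were above it as well, with summed signals of 53050 to 60499, so the tissue still held thymocytes, and their part in the results below was not tested.

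A minority of the antigens gave a signal above a reference level set by genes largely silent in the thymus. As a reference, the 95th percentile of 1035 probe sets for olfactory receptors, which are largely silent outside the nose, was 309.5 in mean signal over the 12 arrays, and their median was 107. 8 of the 33 antigens (24.2%) lay above the 95th percentile, against 56.5% of all 19938 genes. In descending order of mean signal they were Csn2 (655), Mbp (606), Apoa1 (554), Reg3g (534), Ppy (446), Ghrl (386), Sag (326) and Prm1 (320.1). A probe set's signal depends on its own probes as well as on RNA, so this order describes the measurements and does not rank expression between genes. A signal above the reference does not by itself show expression either. The Sry probe set read 416 to 565 in females, which carry no Sry, and so was above 309.5 on each of their arrays.

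**Figure D1:**
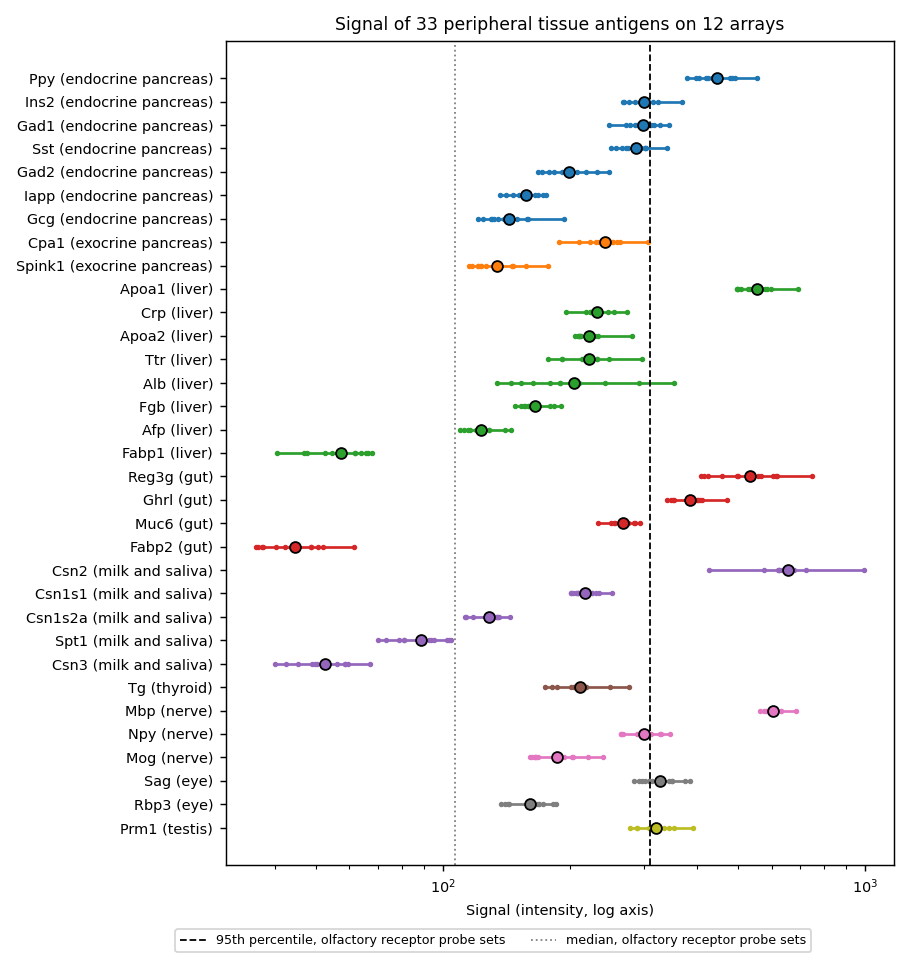
Signal intensity on a log axis (x) of the 33 measured antigens, grouped by tissue (y). Small points are the 12 arrays, the bar spans them and the large point is their mean. A dashed line marks the reference, 309.5, and a dotted line the olfactory receptor median, 107. 8 means lie to the right of the dashed line, and 4 lie to the left of the dotted line.

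The 8 antigens came from 7 tissue classes. Milk and saliva had 1 of 5 antigens above the reference, the gut had 2 of 4, the liver had 1 of 8, the endocrine pancreas had 1 of 7, nerve had 1 of 3 and the eye had 1 of 2. The single testis antigen was above it, and neither of the 2 exocrine pancreas antigens nor thyroglobulin (Tg, the precursor of thyroid hormone) was. The antigens next below the reference were Npy (299.2), Ins2 (299.2), Gad1 (297) and Sst (286). At the lower end, Spt1 (88.8), Fabp1 (57.3), Csn3 (52.5) and Fabp2 (44.5) lay under the median of the olfactory receptors, so that no signal of these 4 genes was detectable by this measure. Tg (211) and Rbp3 (160.6), a retinoid carrier of the eye and a target of autoimmune uveitis, lay between these limits.

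The reference itself differed between arrays, and each array was therefore also read against its own. The 95th percentile of the olfactory receptors ran from 267 on XXM array 2 to 369 on XYM array 9. Csn2, Mbp, Apoa1, Reg3g, Ppy and Ghrl were above it on each of the 12 arrays. Another 7 antigens were above it on some arrays only, namely Sag and Prm1 on 10, Gad1 on 5, Ins2 on 4, Npy on 3, Sst on 2 and Alb on 1. The other 20 antigens were above it on no array. Each array had between 7 and 12 of the 33 antigens above its own reference.

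Csn2 (probe set 10531120) encodes beta-casein, a main protein of milk, and had the highest mean signal of the antigens. Csn2 read 643, 677 and 620.1 on the XXF arrays, 722, 624 and 636 on the XYF arrays, 663, 625, 426 and 575 on the XXM arrays and 994 and 659 on the XYM arrays. The highest array, XYM array 1, was 2.33 times the lowest, XXM array 6, while the females lay close together. The other casein genes of the same cluster on chromosome 5 were dim, with a mean of 217 for Csn1s1, 128.6 for Csn1s2a and 52.5 for Csn3. The signals of Csn1s1 were 209, 209 and 225 in XXF, 208, 201 and 202 in XYF, 203, 234, 225 and 230.2 in XXM and 207 and 252 in XYM. These values were all below the reference and overlapped among the genotypes.

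The promoters of the brightest and of a dim casein gene are printed here because 3 casein genes share a motif in them. The windows run from 250 bases before to 50 bases after the transcription start and come from RefSeq on GRCm38.p6, Csn2 at chr5:87699376-87699675 on the minus strand and Csn1s1 at chr5:87665958-87666257 on the plus strand. Capitals mark TTCNNNGAA, the palindrome to which STAT5, the transcription factor that carries the prolactin signal in the mammary gland, can bind. It begins 93 bases before the start of Csn2 and 100 bases before that of Csn1s1.
Csn2: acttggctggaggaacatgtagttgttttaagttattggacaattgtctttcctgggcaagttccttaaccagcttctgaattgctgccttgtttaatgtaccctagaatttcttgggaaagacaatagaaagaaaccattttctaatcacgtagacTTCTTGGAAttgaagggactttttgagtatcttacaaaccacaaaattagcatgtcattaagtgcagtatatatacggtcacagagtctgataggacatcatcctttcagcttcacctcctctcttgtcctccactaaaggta
Csn1s1: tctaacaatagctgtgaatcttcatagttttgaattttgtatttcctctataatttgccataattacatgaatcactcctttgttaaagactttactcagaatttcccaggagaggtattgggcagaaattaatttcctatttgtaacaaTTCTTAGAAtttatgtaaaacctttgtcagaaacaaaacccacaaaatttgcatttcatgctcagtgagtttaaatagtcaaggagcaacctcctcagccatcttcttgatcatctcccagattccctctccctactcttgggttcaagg
Windows were at hand for 28 of the 34 antigens, and 5 of them (17.9%) held TTCNNNGAA, against 9.55% of 27025 genes. These 5 were Csn2, Csn1s1 and Csn1s2a, with Fgb and Ghrl. TATAAA, searched on both strands, was in the windows of 9 antigens (32.1%), against 15.7% of genes. The antigens' windows had a median of 3 CpG pairs against 8 over all genes, and 4 of the 28 (14.3%), Gad1, Gad2, Npy and Sst, held at least 10 CpG, against 45.8% of genes. Ppy, Reg3g and Sag were the antigens above the reference with TATAAA, and Csn2 and Ghrl those with TTCNNNGAA. Such a match describes letters in a window and not the binding of a factor.

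Reg3g (probe set 10545569) encodes a lectin that the gut epithelium secretes against bacteria. In XXF thymi Reg3g read 614, 604 and 498, with 499.7, 409 and 458 in XYF, 617, 567, 423 and 416 in XXM and 749.6 and 558 in XYM. XYM array 1 was again the highest, and the lowest array was XYF array 8. Its promoter, at chr6:78468825-78469124 on the minus strand, is shown as that of the other antigen that was bright and varied widely, with TATAAA or its reverse complement in capitals, 161 and 27 bases before the start.
Reg3g: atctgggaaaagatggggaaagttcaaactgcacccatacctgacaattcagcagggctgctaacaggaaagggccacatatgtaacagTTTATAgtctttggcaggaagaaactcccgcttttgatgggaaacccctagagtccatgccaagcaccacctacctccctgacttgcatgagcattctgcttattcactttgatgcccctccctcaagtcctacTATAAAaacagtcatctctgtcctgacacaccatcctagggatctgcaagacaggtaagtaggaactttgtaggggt
The other gut antigens were Ghrl, which encodes the appetite hormone ghrelin, Muc6, a stomach mucin, and Fabp2, a fatty acid carrier of the intestine. On the arrays of XXF, XYF, XXM and XYM thymi, Ghrl had signals of 348, 379 and 411, of 351, 399.6 and 379, of 352, 406, 391 and 401 and of 339 and 470.0. Ghrl was highest on XYM array 9 and lowest on the other XYM array, and the genotypes overlapped. Muc6 read 264, 269 and 254 on the XXF arrays, 233, 292 and 275 on the XYF arrays, 256, 283, 274 and 261 on the XXM arrays and 250.4 and 285 on the XYM arrays. The Muc6 values stayed below 309.5 on every array.

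Among liver antigens, Apoa1, the main protein of high-density lipoprotein, was the only one above the reference. The signals of Apoa1 were 496, 586 and 579 in XXF, 509, 500.3 and 534 in XYF, 527, 497, 571 and 599.9 in XXM and 555 and 695 in XYM. XYM array 9 stood above the rest, which lay between 496 and 599.9. Albumin (Alb, probe set 10523062), the most abundant protein of blood plasma, was below the reference in its mean but above it on 1 array. In XXF thymi Alb read 353, 292 and 145, with 134, 179.5 and 242 in XYF, 211, 189.5, 164 and 201 in XXM and 189 and 153 in XYM. XXF array 3 was 2.63 times XYF array 4, the widest span of the 33 antigens, and 2 of the 3 XXF arrays were above every other array. The Alb window at chr5:90460620-90460919, on the plus strand, is given because its values ran apart from those of the other liver genes, and it held neither motif.
Alb: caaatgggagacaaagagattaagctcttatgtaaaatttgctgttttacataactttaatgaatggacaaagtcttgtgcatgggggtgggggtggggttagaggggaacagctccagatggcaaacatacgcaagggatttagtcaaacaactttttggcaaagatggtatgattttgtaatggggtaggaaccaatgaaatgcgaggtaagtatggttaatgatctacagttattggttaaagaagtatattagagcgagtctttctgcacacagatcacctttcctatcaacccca
Transthyretin (Ttr), which carries thyroid hormone and retinol-binding protein, and alpha-fetoprotein (Afp), the albumin of fetal life, were dimmer or similar. On the arrays of XXF, XYF, XXM and XYM thymi, Ttr had signals of 191, 226 and 222, of 178, 232 and 217, of 191, 215, 213 and 247 and of 232 and 297. Afp read 112, 140.2 and 114 on the XXF arrays, 121, 123 and 122 on the XYF arrays, 109.9, 119.9, 145 and 128 on the XXM arrays and 116 and 129 on the XYM arrays. Ttr was highest on XYM array 9, Afp on XXM array 6, and the genotypes overlapped for both genes. The remaining liver antigens had means of 231.6 (Crp, an acute-phase protein), 222.1 (Apoa2), 165.5 (Fgb, a fibrinogen chain) and 57.3 (Fabp1).

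Ppy, which encodes the islet hormone pancreatic polypeptide, was the only endocrine pancreas antigen above the reference. The signals of Ppy were 405, 424 and 483 in XXF, 379, 434 and 446 in XYF, 398, 443, 478 and 492 in XXM and 420.3 and 554 in XYM. XYM array 9 was the highest and XYF array 4 the lowest. Ins2, which encodes insulin, straddled the reference. In XXF thymi Ins2 read 276, 322 and 293, with 267, 293 and 294 in XYF, 285, 305, 315 and 304 in XXM and 269 and 367 in XYM. XYM array 9 was the highest array here too. Spink1, a trypsin inhibitor of the exocrine pancreas, was dim. On the arrays of XXF, XYF, XXM and XYM thymi, Spink1 had signals of 117, 135 and 121, of 123, 123 and 145, of 121, 115, 126 and 157 and of 147 and 177. Its highest values were on XYM array 9 and XXM array 10. The other pancreatic antigens were Gad1 and Gad2 (glutamate decarboxylases and targets of autoantibodies in diabetes, 297 and 198.9), Sst (somatostatin, 286), Cpa1 (a digestive carboxypeptidase, 242), Iapp (amylin, 157.1) and Gcg (glucagon, 143.1).

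Mbp encodes a protein of the myelin sheath, and its locus also makes golli transcripts outside myelin. Mbp read 594, 599.9 and 603 on the XXF arrays, 601, 577 and 584 on the XYF arrays, 632, 633, 687 and 565 on the XXM arrays and 582 and 618 on the XYM arrays. The highest value, on XXM array 6, was 1.22 times the lowest, on XXM array 10, and females lay between 577 and 603. XXM array 6 also had the highest summed signal of the 8 measured Schwann cell genes, 6376 against 3212 to 3925 on the other arrays, and Pmp22, a myelin protein of peripheral nerve, read 3847 there against a median of 1357. The part of Schwann cells in the Mbp signal was not tested. Npy encodes a neuropeptide of sympathetic nerves and the brain. The signals of Npy were 265, 289.6 and 311 in XXF, 264, 288 and 304 in XYF, 267, 308, 327 and 328 in XXM and 294 and 345 in XYM. Npy was highest on XYM array 9 and the genotypes overlapped. Mog, a surface protein of central myelin, had a mean of 186.1.

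Sag encodes retinal arrestin, a classic target of autoimmune uveitis, and Prm1 encodes a protamine that packs sperm DNA. In XXF thymi Sag read 296, 283 and 349, with 292, 321 and 384 in XYF, 313, 301, 343 and 374 in XXM and 307 and 349 in XYM. On the arrays of XXF, XYF, XXM and XYM thymi, Prm1 had signals of 278, 314 and 343, of 289, 324 and 353, of 288, 309, 308 and 334 and of 309.7 and 391. Each of them was above 309.5 on 7 of the 12 arrays, with no genotype apart from the others. Spt1 read 104, 92.6 and 95.5 on the XXF arrays, 104, 70.3 and 80.8 on the XYF arrays, 93.9, 78.8, 73.3 and 80.7 on the XXM arrays and 102 and 89.6 on the XYM arrays. Every value of Spt1 was under 107, the median of the olfactory receptors, and the genotypes overlapped.

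**Figure D2:**
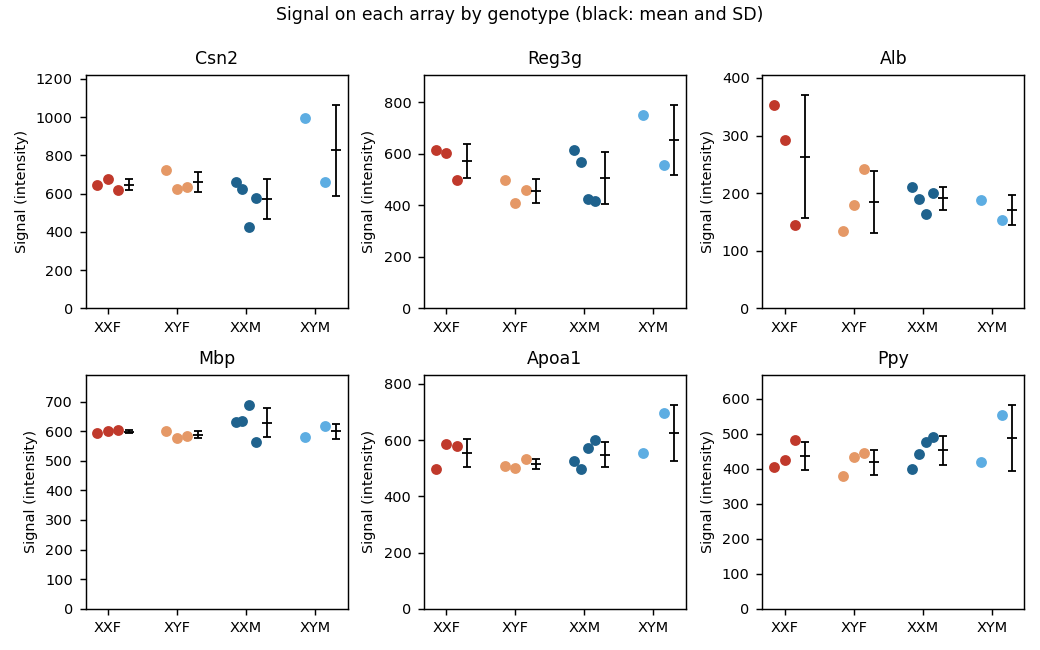
Signal intensity (y, from 0) of 6 antigens on each array, by genotype (x); coloured points are arrays, and the black bar gives the mean and SD of 3 XXF, 3 XYF, 4 XXM or 2 XYM arrays. Genotypes overlap for Csn2, Reg3g, Alb, Mbp and Apoa1 as well as Ppy, and single arrays stand out, such as XYM array 1 for Csn2 (994) and XXF array 3 for Alb (353).

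3 of the antigens varied more between arrays than nearly all probe sets of similar brightness. Against probe sets whose mean signal was similar (smaller over larger at least 0.8), the SD of the log2 values was at percentile 99.5 for Alb, 98.7 for Csn2 and 98.3 for Reg3g. The SD of Mbp was at percentile 12.1, that of Csn1s2a at 9.81, and the median over the 33 antigens was 60.0. Most antigens, above the reference or below it, instead ran parallel to the silent genes. The mean log2 signal of the olfactory receptors ran from 0.20 below its average on XXF array 3 to 0.30 above it on XYM array 9, and the median of the 25 antigens at or below the reference correlated with it at r = 0.94 over the 12 arrays. 28 of the 33 antigens had a positive correlation with it (median r = 0.75), against 72.6% of the other probe sets at or below the reference and 31.8% of probe sets above it. They were 22 of the 25 antigens at or below the reference (median r = 0.75) and 6 of the 8 above it (median r = 0.75). The 5 with a negative correlation were Spt1 (-0.48), Reg3g (-0.43), Csn2 (-0.39), Alb (-0.39) and Csn1s2a (-0.13). 23 of the 33 antigens had their highest value on XYM array 9, the array with the highest olfactory receptor signal. These correlations share arrays and background and are given as a description.

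**Figure D3:**
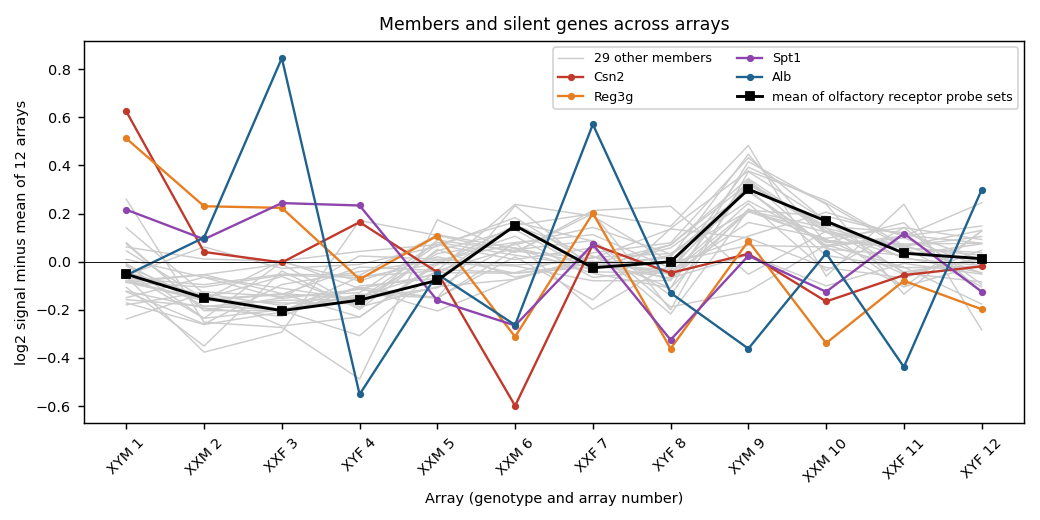
log2 signal minus the gene's mean over 12 arrays (y) on each array (x). Grey lines are 29 antigens, the black line is the mean of 1035 olfactory receptor probe sets, and coloured lines are Csn2, Reg3g, Spt1 and Alb. Most grey lines follow the black line, which peaks on XYM array 9 at 0.30, while Csn2 and Reg3g peak on XYM array 1 and Alb on XXF array 3.

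Csn2 and Reg3g varied alike and with Fezf2, and Alb varied with genes known from mesothelium. These pairs were picked after their values were seen, so they are described without a test. Over the 12 arrays Csn2 and Reg3g had r = 0.73 (rho = 0.76), which became 0.54 without XYM array 1. Fezf2 read from 442 on XYF array 8 to 616 on XYM array 1, and its r was 0.81 with Csn2 and 0.68 with Reg3g, or 0.68 and 0.51 without XYM array 1. Spt1, whose signal was under the olfactory receptor median on every array, had r = 0.86 with Fezf2 and 0.65 with Csn2, which were 0.62 and 0.38 within the array number sets (1 to 4, 5 to 8, 9 to 12). The 10 genes most like Csn2 by r over the 12 arrays were sought among the brightest probe sets of the 19938 genes. They were led by H2-Eb2 (r = 0.93, an MHC class II gene) and Ccl22 (0.93, a chemokine of dendritic cells and medullary epithelium). The others were Cd180 (0.88) and Cd40 (0.85), both receptors of antigen-presenting cells, and Calcb (0.87), Syt1 (0.87), Fcer1g (0.86), Cxcl11 (0.86), Plbd1 (0.85) and Nomo1 (0.85). Most like Reg3g were P4ha1 (0.86), Plbd1 (0.84) and Rabggtb (0.84), and most like Spt1 were Egln1 (0.93), Rpl7 (0.89) and Rps25 (0.87). The summed medullary epithelium markers had r = 0.80 with Csn2 and 0.68 with Reg3g, and those of macrophages and dendritic cells 0.64 and 0.71. The medullary list holds Fezf2 and Cd40, named above for their likeness to Csn2, so part of its likeness was fixed by shared genes.

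For Alb, the most similar genes were Pcsk6 (r = 0.86), a proprotein convertase, and Wt1 (0.80), Upk1b (0.80), Lrrn4 (0.78) and Upk3b (0.77), which are known from mesothelium, the lining of body cavities. A list of 10 mesothelial genes was drawn up after this was seen and holds Wt1, Upk1b, Lrrn4 and Upk3b, so no count over it is given. The other 6 genes had an r with Alb between -0.62 (Calb2) and 0.75 (Muc16). 3 of the 10 genes had a mean signal above the reference, and Calb2 (69.8) and Muc16 (101.7) were below the olfactory receptor median. The summed signal of all 10 includes the 4 genes picked for their likeness to Alb, so part of its likeness was fixed by that choice. It was highest on XXF array 3 (3765) and XXF array 7 (3703), where Alb read 353 and 292. On XYF array 4 it was 2014, where Alb read 134. Other arrays did not match, with a sum of 2414 and Alb at 242 on XYF array 12, and 3168 and 189 on XYM array 1. The other 7 liver antigens had r between -0.29 and 0.16 with Alb. Whether mesothelium in the dissected tissue bears on the Alb signal was not tested.

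Aire itself was well above silent genes. The signals of Aire were 1078, 924 and 1057 in XXF, 1329.6, 1009 and 1201 in XYF, 978, 988, 868 and 1070.5 in XXM and 1284 and 1178 in XYM. XX thymi averaged 995 ± 79.7 (SD, n = 7) and XY thymi 1200.3 ± 123 (SD, n = 5), and the XY minus XX difference of 0.27 in log2 was not called by limma (adjusted p = 1.00, exact permutation p = 0.00758). As a list, and without covariates, the antigens leaned neither way with Aire. Their r with log2 Aire over the 12 arrays was above 0 for 17 and below 0 for 16, with a median of 0.02. Of all other probe sets, 45.4% were above 0. With the olfactory receptor mean in the fit the antigens' median r was 0.19, against -0.01 for all probe sets tested. With genotype and the array number set in the fit it was -0.11, against -0.03. With Aire as the covariate, limma called 0 of the 33 antigens, and 1 was at an unadjusted p under 0.05. Among the 35555 probe sets tested, 1 was called (0.00281%) and 8.62% were at an unadjusted p under 0.05.

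Without covariates, Csn2 had the largest r with Aire of the 33 antigens. It was 0.69 (permutation p = 0.00992) and its rho 0.45 (permutation p = 0.139), with a limma adjusted p of 0.348 over all probe sets. Without the 2 arrays farthest from the median of Aire, XYF array 4 and XXM array 6, r was 0.54, and without XXM array 6 alone it was 0.54 too. With genotype and the set of array numbers (1 to 4, 5 to 8, 9 to 12) in the fit, r was 0.47, and other antigens then had a larger absolute r, led by Rbp3 (0.79), Prm1 (-0.65) and Iapp (0.65). With genotype alone in the fit it was 0.51, against 0.77 for Spt1 and -0.73 for Muc6. 2.26% of probe sets had a higher r with Aire. Beside it, 10 of 10 endothelial genes had an r above 0 with Aire (median 0.75, r of the summed signal 0.89), 15 of 17 medullary genes did (median 0.51), and the summed thymocyte genes had r = -0.49. Their part in the Csn2 relation was not tested.

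The next largest values of r were -0.54 for Mbp (permutation p = 0.0604, rho -0.46 with p = 0.134), 0.52 for Spt1 (permutation p = 0.0822, rho 0.52 with p = 0.0903), -0.48 for Muc6 (permutation p = 0.12, rho -0.34 with p = 0.279) and -0.43 for Afp (permutation p = 0.163, rho -0.26 with p = 0.416). Without XYF array 4 and XXM array 6 these became -0.36, 0.24, -0.18 and -0.20, and their limma adjusted p was between 0.594 and 0.754. The r of Spt1 moved widely with the covariates, being 0.05 with the array number set, 0.77 with genotype and 0.61 with both in the fit. Ins2, often used as a readout of Aire, had r = -0.35 (permutation p = 0.262) and rho = -0.52 (permutation p = 0.0885). Reg3g had r = 0.24 (permutation p = 0.453) with Aire.

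**Figure D4:**
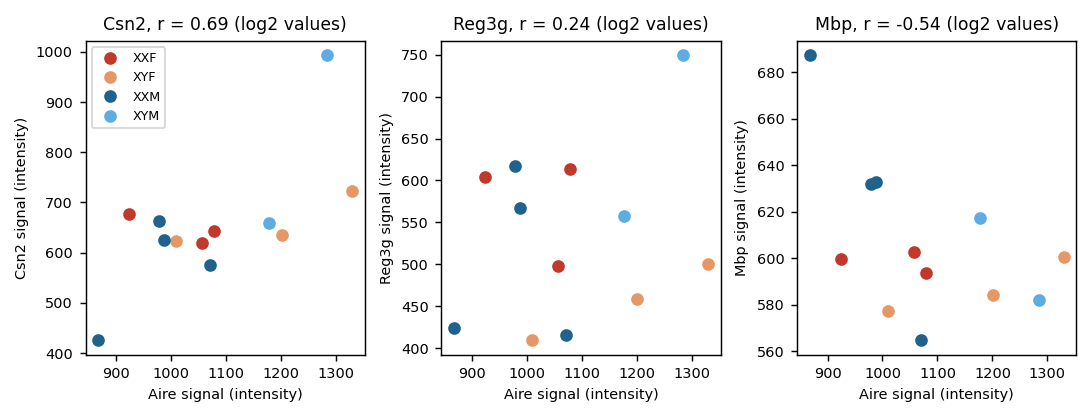
Signal intensity of Csn2, Reg3g and Mbp (y) against that of Aire (x), 1 point per array, coloured by genotype. Pearson's r, computed on log2 values, is 0.69 for Csn2, 0.24 for Reg3g and -0.54 for Mbp; XXM array 6 is the lowest in Aire and Csn2 and the highest in Mbp.

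No antigen passed the test for gonadal sex with 6 male and 6 female arrays. In limma's fit of 4 genotype means, 0 of the 33 antigens were called at an adjusted p under 0.05 and 0 were at an unadjusted p under 0.05. Over all 35556 probe sets 1 was called (0.00281%), that of Sry, and 3.03% were at an unadjusted p under 0.05. No antigen had groups that did not overlap, against 0.0731% of probe sets. The lowest p was that of Spink1, with 127.6 ± 10.6 in females and 140.7 ± 24.0 in males (SD, n = 6 each), a log2 difference of 0.18 (95% interval -0.02 to 0.39, limma p = 0.0772, exact permutation p = 0.266). Ttr differed by 0.18 (-0.04 to 0.40, exact permutation p = 0.262), Csn1s1 by 0.11 (exact p = 0.0996), Apoa1 by 0.13 (exact p = 0.26) and Npy by 0.13 (exact p = 0.119). The limma adjusted p of all of them was 0.985.

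30 of the 33 antigens had a higher mean log2 signal in males, with a median difference of 0.07, against 51.3% of all probe sets and 68.7% of probe sets at or below the reference. The silent genes leaned the same way, with 958 of 1035 olfactory receptor probe sets above 0 and a median of 0.12. With each array's olfactory receptor mean in the fit, 15 of the 33 antigens were above 0 and the median was -0.01. Without XYM array 9 alone, 17 were above 0 and the median was 0.00. Without XYM array 1, the other XYM array stood alone for its genotype, 30 antigens were above 0 and the median was 0.14.

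The intervals show what differences remain possible. Over the 33 antigens the 95% interval of the male minus female difference reached from -0.69 (Alb) to 0.43 (Reg3g) on the log2 scale, with a median half-width of 0.20. The narrowest was that of Mbp, 0.05 (-0.08 to 0.18). For Csn2, which varied more, the difference was 0.05 (-0.23 to 0.33).

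**Figure D5:**
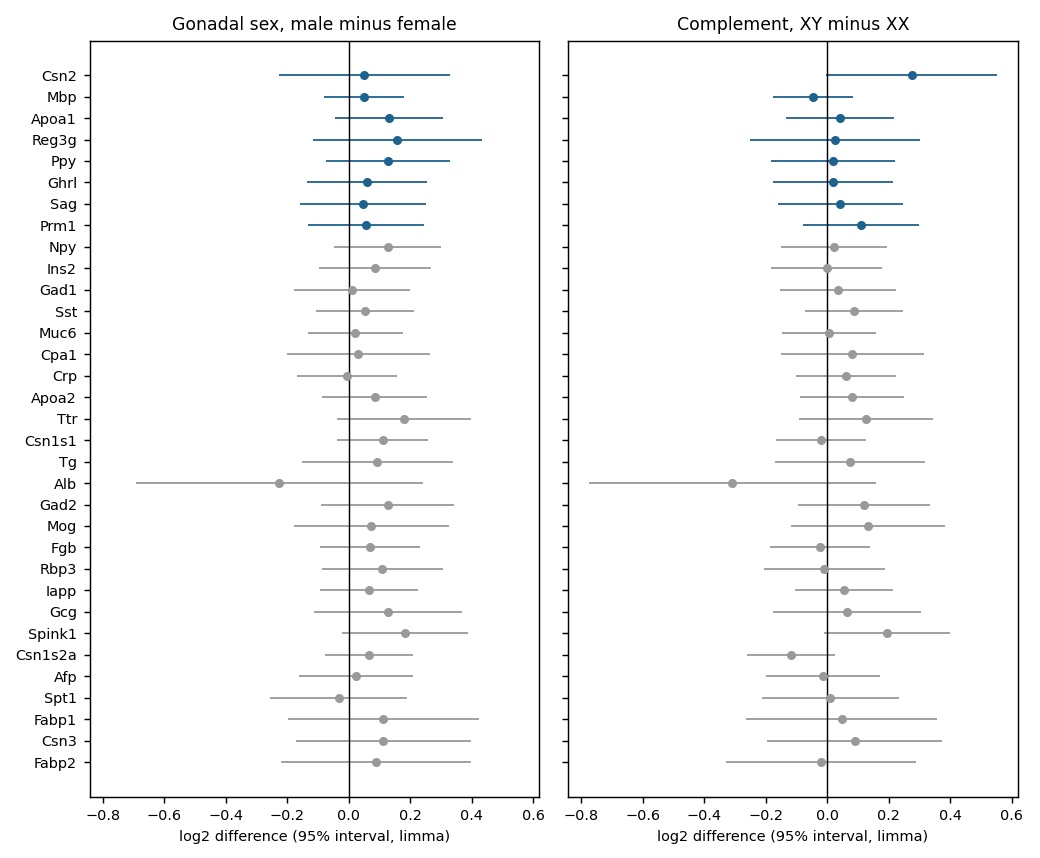
log2 differences with 95% intervals from limma (x) for 33 antigens in order of mean signal (y), male minus female on the left and XY minus XX on the right; blue, antigens above the reference; grey, the rest. Every interval includes 0, from the narrow one of Mbp to the wide one of Alb, and most sex differences lie slightly to the right of 0 (30 of 33).

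For sex chromosome complement, limma called 0 of the 33 antigens for XY against XX, with 0 at an unadjusted p under 0.05, while over all probe sets 13 were called (0.0366%) and 2.55% were at an unadjusted p under 0.05. No antigen had groups without overlap, against 0.166% of probe sets. Csn2 came closest, with XX thymi at 604 ± 85.4 (SD, n = 7) and XY thymi at 727 ± 154 (SD, n = 5), 0.27 apart in log2 (95% interval -0.00 to 0.55, limma p = 0.053, exact permutation p = 0.0934). Leaving out 1 array moved the Csn2 difference between 0.13 (without XYM array 1) and 0.42 (without XYM array 9). It was at an unadjusted p under 0.05 without XXM array 2, XXM array 5 or XYM array 9, with a limma adjusted p of 1.00 each time. Within array numbers 1 to 4, 5 to 8 and 9 to 12 it was 0.38, 0.14 and 0.12. The same contrast for Aire was 0.27 over all arrays. Markers of several cell types moved with it. The difference was above 0 for 17 of 18 medullary epithelium genes, Aire among them (median 0.09), and for 10 of 10 endothelial genes (0.14). It was above 0 for 10 of 12 cortical genes (0.06), 2 of 10 fibroblast genes (-0.14) and 0 of 17 thymocyte genes (-0.10). Their part in the Csn2 difference was not tested.

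Alb lay the other way, with 222.1 ± 74.1 on XX and 179.4 ± 41.0 on XY arrays, a difference of -0.31 (-0.78 to 0.16, exact permutation p = 0.275). Spink1 differed by 0.19 (-0.01 to 0.40, exact permutation p = 0.17) and Ttr by 0.13 (exact p = 0.463). Csn1s2a, another casein gene, was below the reference on all arrays. In XXF thymi Csn1s2a read 129, 136 and 126, with 132, 113 and 114 in XYF, 129, 135, 144 and 135 in XXM and 134 and 118 in XYM. Its difference was -0.12 (-0.26 to 0.02, limma p = 0.0945), and its exact permutation p of 0.0379 was the only one of 33 under 0.05, without adjustment. 24 antigens had a higher mean on XY arrays, with a median difference of 0.04, against 52.6% of all probe sets and 62.2% of those at or below the reference. With the olfactory receptor mean in the fit 16 were above 0 (median -0.0033), and without XYM array 9 the number was 10 (median -0.04).

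The interaction asks whether XY minus XX differed between males and females. limma called 0 of the 33 antigens and 2 were at an unadjusted p under 0.05, against 0.0% and 1.54% of all probe sets. 28 of the 33 interactions were above 0, against 49.2% of all probe sets and 60.2% of those at or below the reference, with a median of 0.14. Without XYM array 9 alone, 13 were above 0 and the median was -0.04. Reg3g had means of 572 ± 64.5 in XXF, 456 ± 45.3 in XYF, 506 ± 101 in XXM and 654 ± 136 in XYM (SD, n = 3, 3, 4 and 2), an interaction of 0.70 (95% interval 0.15 to 1.25, limma adjusted p = 1.00). The XY mean was thus lower than the XX mean in females and higher in males, while single arrays overlapped in both sexes. The interaction was 0.49 without XYM array 1, where the other XYM array stood alone. Spt1 had 0.45 (0.01 to 0.90, limma adjusted p = 1.00), at signals below the median of the olfactory receptors. The F test over the 4 genotypes called 0 antigens, with 0 at an unadjusted p under 0.05, against 0.0281% and 1.99% of probe sets.

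Genes of the same pathway that were not on the antigen list were read in the same way. Of 18 regulators of antigen expression, 17 were measured and 15 were above the reference. The brightest were Chd4 (2823, a nucleosome remodeller), Uhrf1 (2182, a reader of DNA methylation), Cdk9 (1581, the kinase that releases paused RNA polymerase) and Hipk2 (1263). 0 were called for sex or complement, and 2 were at an unadjusted p under 0.05 for complement, Aire and Relb (a transcription factor of medullary epithelium, difference 0.19, exact permutation p = 0.0354, limma adjusted p = 1.00). Relb had r = 0.87 with Aire and Irf8 had r = 0.82.

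A further 47 antigens of other organs, measured out of 56 listed, had 14 above the reference (29.8%). They were led by Chga (527, a protein of hormone granules), Oxt (525, oxytocin), Avp (478, vasopressin) and Tff3 (420.1, a peptide of mucous epithelia). 0 were called, and 1, Apoh, was at an unadjusted p under 0.05 for sex (0.21, exact permutation p = 0.16, limma adjusted p = 0.985). 42 of the 47 were above 0 for sex (median 0.08), which became 18 with the olfactory receptor mean in the fit. With Aire, 13 of the 47 had an r above 0 (median -0.09).

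Transcription factors that mark other organs, found in the thymus in epithelial cells that mimic those organs, had 24 of 26 measured and 7 above the reference (29.2%). The brightest were Spib (544, of microfold cells), Nkx2-1 (517, of thyroid and lung), Foxa1 (512) and Insm1 (406, of endocrine cells). 0 were called and 0 were at an unadjusted p under 0.05 for sex or complement. Factors of the organs of the antigens thus lay on both sides of the reference. Pdx1 (136.2) and Ptf1a (147.5) of the pancreas and Cdx2 (205.8) of the intestine, named after their values were seen, were below it. Nkx2-1 and Insm1 were above it.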

How the data were processed

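Values on 12 arrays for 35556 probe sets were used as deposited, as linear intensity values that the authors had already summarised and normalized. For this step PLIER in Expression Console 1.1 (Affymetrix) stands in the submitters' processing notes and RMA with quantile normalization in the study's methods, so the summary method is unsettled. All columns matched a sample (0 did not). The platform annotation gave 1 gene symbol to 21789 probe sets, several to 1621 and none to 12146, and only the first kind was named. log2 intensities were fitted in limma 3.58.1 (R 4.3.3) with 4 genotype means and Benjamini-Hochberg adjustment over all probe sets (threshold 0.05), after the script had been tested on simulated data. Permutation tests were two-sided, exact over all 924 (sex) or 792 (complement) arrangements of the arrays and with 100000 resamples for correlations (scipy 1.17.1). The number of arrays limits the precision. No source states that arrays were separate pups, so p-values measure only the spread between arrays. Members and lists were chosen with earlier results of these data known. Named were the 10 brightest antigens, the 5 with the lowest p for sex and for complement, the 5 with the highest absolute r with Aire, up to 4 of each other list by signal and by p, Aire and Fezf2 always, and Sry, Xist and Eif2s3y to check the labels. Other genes given with values, such as Pmp22 and those most like Csn2, Reg3g, Spt1 or Alb, were chosen after their values were seen. Promoters came from RefSeq (GRCm38.p6).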

Additional observations from a re-analysis of the deposited data

Results flagged for a closer look

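Single arrays stood apart for 7 antigens when each gene's highest or lowest array was compared with the others of its sex or sex chromosome complement by the ratio of the gap to the range (Dixon's test). 132 such groups were tested and 9 values, on 4 arrays, were found apart. That share is close to the 1 in 20 groups or so that chance alone gives. The groups of a gene share arrays, so they were not independent tests. No explanation was tested.

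For Csn2, XYM array 1 read 994 among XY arrays, the others lying between 624 and 722, and XXM array 6 read 426 among XX arrays, the others lying between 575 and 677. These are the highest and the lowest Csn2 values of the series.

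XYM array 9, the array with the highest olfactory receptor signal, stood apart among XY arrays for Apoa1 at 695 (others 500.3 to 555), Ins2 at 367 (others 267 to 294), Csn1s1 at 252 (others 200.8 to 208), Fgb at 190.4 (others 152.8 to 159.8) and Gcg at 193 (others 130.1 to 144). It also stood apart among males for Apoa2, at 280.4 against 205.8 to 229.6. Among females, XXF array 11 read 225 for Csn1s1 while the others lay between 200.8 and 209.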

How the results depend on the processing

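No antigen was called for sex or complement under any of 22 alternatives, for their interaction under 21 or for Aire under 20. All were refitted with renewed quantile normalization, an offset of 16, averaging of probe sets per gene (which leaves the antigens' own values as they are, since each had 1 probe set), each array left out in turn and, chosen after seeing the data, the olfactory receptor mean as a covariate. Genotype tests were also run on probe sets above the reference only, with an additive model (which has no interaction), trended robust moderation, array weights, array number sets as a block and the methods' two-way ANOVA, and the Aire relation with genotype and the array number set as covariates and without the 2 farthest arrays. The number of antigens above silent genes depended on the reference, with 14 at the 90th percentile of the olfactory receptors, 4 at the 99th and 22 when 170 vomeronasal receptor probe sets served instead (95th percentile), and was 8 without any 1 array. The r of Afp with Aire was -0.43 and turned to 0.0535 with the array number set as covariate, and the cause was not tested. Numbers of antigens at an unadjusted p under 0.05 for sex, complement and the interaction were each highest without XYM array 1. They are not given for that fit, in which the other XYM array stood alone. For Aire they ranged from 0 to 3 (highest without XYM array 9). Array numbers in the labels run from 1 to 12 and pair no arrays of different genotypes. With sets of 4 successive numbers as a block, 4 antigens for sex, 3 for complement and 6 for the interaction were at an unadjusted p under 0.05. The share of all probe sets in the block and Aire alternatives is not given here, so these numbers are not a result about the antigens.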
